A study of Mus musculus with 12 samples.

Results

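The genes described here are 9 members of the bone morphogenetic protein (BMP) and transforming growth factor-beta (TGF-beta) system, read by symbol from the raw count table of mouse colorectal tissue. They were Bmp2, Bmp4, Bmp5 and Bmp7 (BMP ligands), Grem1 and Chrdl1 (secreted BMP antagonists), Tgfb1 (the main TGF-beta ligand), Inhba (the subunit of activin A) and Id1, which is neither a ligand nor an antagonist but a target gene that BMP signals switch on. All 9 were found among the 18514 genes of the table, and all 9 passed the filter on low counts that left 15484 genes for testing. Another 117 genes of the same pathways that were in the table served as context, of which 106 were tested.

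RNA was sequenced from 12 male C57BL/6 mice, 3 in each of 4 groups, with 1 library per mouse. Ctrl mice had neither treatment, and Ctrl_Swim mice swam daily. Model mice received azoxymethane (AOM), a carcinogen, by a single injection, followed by cycles of dextran sodium sulfate (DSS) in the drinking water, which injures the colon lining, so that tumours form in an inflamed colon. Model_Swim mice, titled Swim in the labels, received the same AOM/DSS and also swam, with training that began before AOM and went on to the end. The mice were bought at 4 weeks of age, and mice that did not swim were placed in shallow water instead. The labels name the tissue as colorectal without saying whether a piece held tumour or not, and no allele or transgene was involved. The comparisons ask what AOM/DSS does to these genes, what swimming does, and whether the swimming difference depends on AOM/DSS.

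BMPs and TGF-beta are secreted dimers that bind pairs of type I and type II serine/threonine kinase receptors, which then phosphorylate SMAD proteins. BMP receptors act through SMAD1, SMAD5 and SMAD9, and TGF-beta and activin receptors act through SMAD2 and SMAD3, with SMAD4 as the shared partner. In the colon, BMP activity is high near the lumen, where it favours differentiation, and is held low at the crypt base by antagonists such as gremlin 1, which stromal cells below the crypts secrete. TGF-beta 1 restrains immune cells and epithelial growth and drives matrix production by fibroblasts. Activin A is known for its release in inflamed and wounded tissue.

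Promoter sequence is shown for the pair of members with the largest increases under AOM/DSS, Grem1 and Inhba, since these are the genes on which the main result rests. The sequences are the 250 bases before the transcription start that RefSeq lists on GRCm38.p6, written 5′ to 3′ on the strand of the gene. Grem1 is encoded on the minus strand and its window is chr2:113758649-113758898. Inhba is on the plus strand with the window chr13:16011601-16011850, which lies inside the annotated gene because another start is annotated farther upstream. The capitals mark, in Grem1, the 1 match to GGCGCC, known as a GC-rich SMAD element, 78 bases before the start. In Inhba they mark the 1 match to TATAAA, the letters of the TATA box motif searched anywhere in the window, 91 bases before the start.
Grem1: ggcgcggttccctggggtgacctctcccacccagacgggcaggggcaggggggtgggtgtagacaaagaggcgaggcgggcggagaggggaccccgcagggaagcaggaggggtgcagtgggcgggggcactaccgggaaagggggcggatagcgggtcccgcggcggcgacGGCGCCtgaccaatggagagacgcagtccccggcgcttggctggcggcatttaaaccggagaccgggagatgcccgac
Inhba: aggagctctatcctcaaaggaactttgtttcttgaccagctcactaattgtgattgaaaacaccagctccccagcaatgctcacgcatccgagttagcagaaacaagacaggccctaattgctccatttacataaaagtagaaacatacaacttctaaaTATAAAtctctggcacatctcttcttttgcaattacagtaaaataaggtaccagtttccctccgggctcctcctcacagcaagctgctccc
The 2 windows differed in base composition, with 72.0% G and C in Grem1 and 43.2% in Inhba against a median of 52.4% over 32851 promoters. Of these promoters, 9.59% held GGCGCC and 12.4% held TATAAA on either strand. The other motifs searched on both strands, none overlapping another in these windows, were GTCTAGAC (the SMAD box palindrome, in 0.167% of promoters), TGANTCA (the AP-1 site, in 6.75%), CCAAT (in 33.8%) and CACGTG (an E-box, in 6.02%), and of these only CCAAT was matched in the 2 windows, once in Grem1, 69 bases before the start and shown in lower case. Promoter windows were matched for 5 of the 9 members (Bmp4, Bmp5, Grem1, Tgfb1 and Inhba). A match describes the letters and does not show that a factor binds there.

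On GRCm38.p6 the genes lie apart from each other, on 6 chromosomes. Grem1 spans chr2:113748675-113758648, Id1 chr2:152736251-152737410, Bmp2 chr2:133552159-133562896 and Bmp7 chr2:172868012-172940321. Bmp4 spans chr14:46383525-46390669, Bmp5 chr9:75775365-75900316, Tgfb1 chr7:25687002-25705077, Inhba chr13:16004256-16031609 and Chrdl1 chrX:143285674-143394263. Bmp4, Bmp5 and Inhba overlap annotated genes on the opposite strand, and Bmp5 also 1 on its own strand, which strand cannot separate. None of these has a row in the count table, and the strand setting of the counting was not given in the sources used here, so reads of such a partner could be counted with the member.

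Library totals lay between 17256953 and 19451055 counts, and a count of 3, taken as the lower limit of detection, corresponds to 0.153 to 0.172 CPM (counts scaled to the library total). Such limits cover counting error only. The libraries held the markers of colon: the 12-gene colon epithelium list summed to 28980 to 32566 CPM in Ctrl, 25497 to 30951 in Ctrl_Swim, 14938 to 28235 in Model and 25267 to 27625 in Model_Swim. All Model mice were below all Ctrl mice in this sum, and 7 of its 12 genes fell in Model. Some libraries also held RNA of other tissue. Genes of pancreatic acinar cells summed to 5.34% of the TMM-scaled library total in Model mouse 1 and 2.61% in Model mouse 3, against at most 0.0281% in the other mice. The 12 squamous epithelium genes summed to 4.12 to 7.23 CPM in Ctrl, 3.09 to 377 in Ctrl_Swim, 4.59 to 1449 in Model and 113 to 1055 in Model_Swim. In Model mouse 1, 8 genes of Wnt-driven tumour epithelium summed to 883 CPM, against 238 and 164 CPM in the other Model mice. These differences move with single mice, and their part in the results was not tested. Fits without Model mice are given beside the results they change. In such bulk tissue, a change in the number of cells of a type and a change in RNA per cell cannot be told apart.

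Id1 was the most abundant member in every group and Inhba the least. Because reads scale with transcript length, levels are compared between genes in FPKM (fragments scaled to transcript length and library size). In Ctrl the mean levels were 116 FPKM for Id1, 13 for Grem1, 11.7 for Bmp4, 9.6 for Tgfb1, 8.74 for Bmp2, 8.15 for Bmp5, 2.85 for Bmp7, 2.05 for Chrdl1 and 0.125 for Inhba. The ranges of neighbours in this order overlapped between Grem1 and Bmp4, between Tgfb1 and Bmp2 and between Bmp2 and Bmp5, and the other neighbours were separate. In Model, Grem1 stood apart from the ligands at 52.3 ± 2.46 FPKM (SD, n = 3), followed by Tgfb1 at 19.95 ± 3.01 FPKM, Bmp4 at 17.7 ± 3.17, Bmp2 at 11.2 ± 5.98, Bmp5 at 9.35 ± 2.18, Bmp7 at 5.10 ± 2.58 and Chrdl1 at 3.78 ± 0.870 FPKM, and each of these neighbours from Tgfb1 to Chrdl1 overlapped with the next. The order in Model_Swim was the same as in Model. In Ctrl_Swim, Bmp4 had the higher mean, 14.9 FPKM, with Grem1 at 13.3 FPKM, and their ranges overlapped.

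AOM/DSS without swimming raised 5 of the 9 genes: both antagonists, Tgfb1, Inhba and Bmp4. None fell. Calls are at a Benjamini-Hochberg adjusted p under 0.05 over all 15484 genes in edgeR's quasi-likelihood test. Over all genes, 32.7% passed in either direction and 16.5% as higher, and the 5 of 9 members are to be read against these shares. An unadjusted p under 0.05 was reached by 6 of 9 members and by 45.2% of all genes. With the added cutoff of a fold over 2 or under 0.5, 2 members passed (Grem1 and Inhba), where 7.43% of all genes did. All 9 log2 fold changes were above 0, with a median of 0.73, where the median over all genes was 0.0055.

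Below, CPM are scaled by TMM as above and given for mice 1, 2 and 3 of each group (2, 3 and 4 in Ctrl_Swim). A log2 fold change is given with its standard error (SE).

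**Figure D1:**
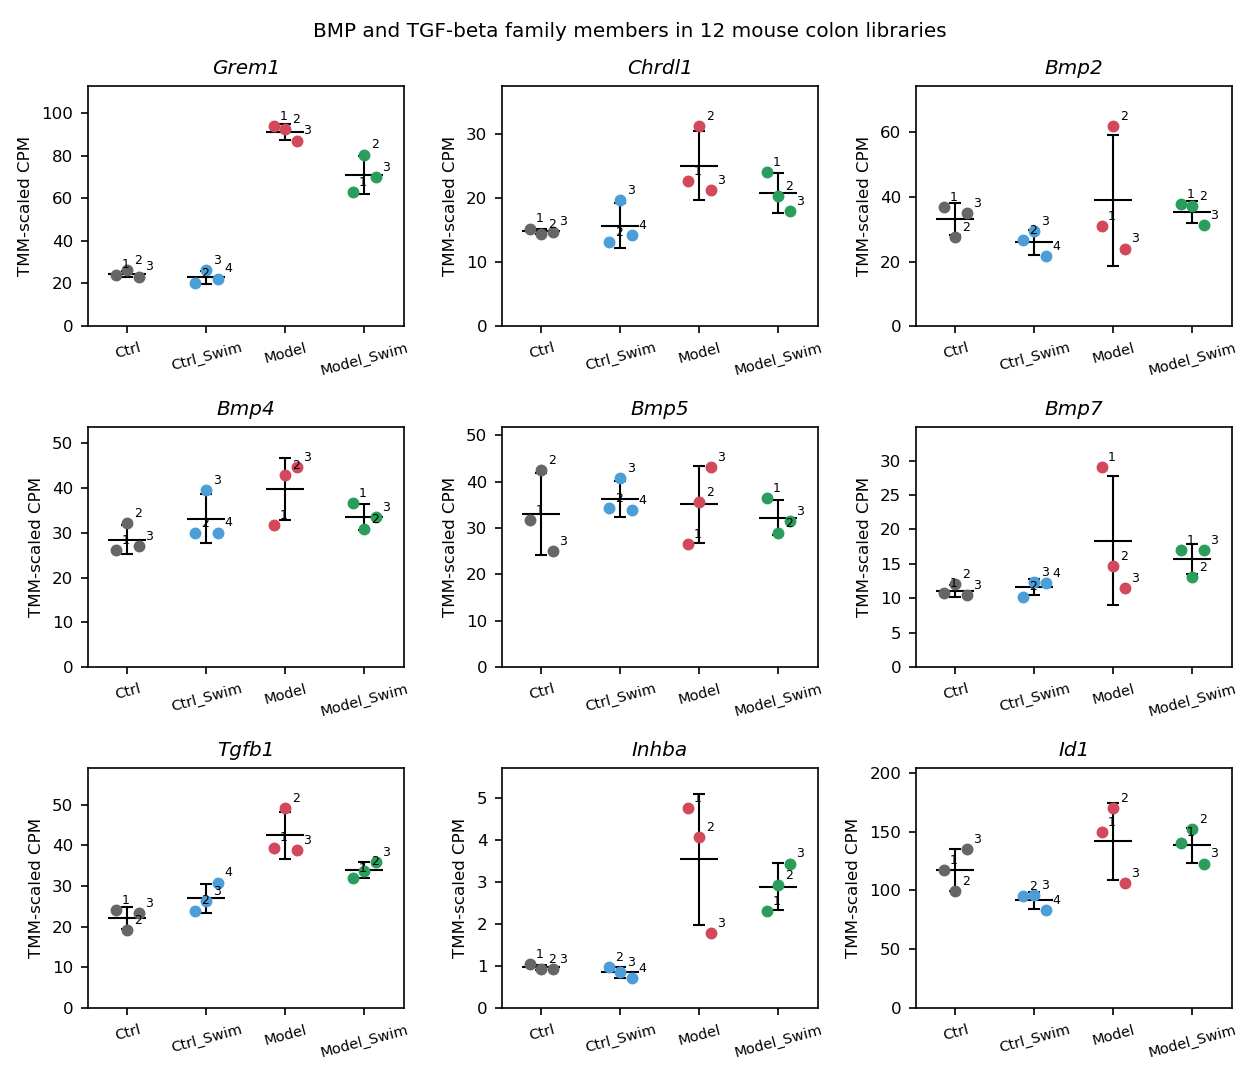
TMM-scaled CPM of the 9 genes (y axis, each panel from 0) in the 4 groups (x axis). Points are single mice with their replicate number, the wide mark is the group mean and the bar ± 1 SD (n = 3). The Grem1 values of all AOM/DSS mice lie between 62.9 and 93.9 CPM and those of all other mice between 20.2 and 26.2 CPM, and 1 Model mouse stands high for Bmp2 (mouse 2) and 1 for Bmp7 (mouse 1).

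Grem1 encodes gremlin 1, a secreted protein that binds BMP2, BMP4 and BMP7 and keeps them from their receptors. Its levels were 24.2, 26.2 and 23.2 CPM in Ctrl, 20.2, 26.2 and 22.2 CPM in Ctrl_Swim, 93.9, 92.3 and 87.0 CPM in Model, and 62.9, 80.5 and 69.9 CPM in Model_Swim. All 6 AOM/DSS mice were above all 6 others, and all Model_Swim mice were below all Model mice. Grem1 was 3.71-fold higher in Model than in Ctrl (log2 fold change 1.89, SE 0.11, edgeR adjusted p = 1.73e-05) and 3.10-fold higher in Model_Swim than in Ctrl_Swim (1.63, SE 0.11, edgeR adjusted p = 0.000161). Both calls were kept in all 22 alternative fits of each, in which the log2 fold change ranged from 1.88 to 2.0 and from 1.53 to 1.74.

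Chrdl1 encodes chordin-like 1, an antagonist with chordin-type BMP-binding domains. Chrdl1 was at 15.2, 14.4 and 14.8 CPM in Ctrl, 13.1, 19.7 and 14.3 CPM in Ctrl_Swim, 22.7, 31.3 and 21.3 CPM in Model, and 24.1, 20.3 and 17.9 CPM in Model_Swim. The Model mice lay above the Ctrl mice without overlap, while Model_Swim and Ctrl_Swim overlapped through Ctrl_Swim mouse 3. The increase in Model was 1.69-fold (log2 0.76, SE 0.18, edgeR adjusted p = 0.0101). Between the swimming groups the log2 difference was 0.40 (95% interval 0.0034 to 0.80, edgeR adjusted p = 0.219) and did not pass.

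Of the BMP ligands, Bmp4 alone passed the test, and its groups overlapped. Bmp4, expressed by the colon mesenchyme, was at 26.2, 32.1 and 27.0 CPM in Ctrl, 29.9, 39.5 and 30.1 CPM in Ctrl_Swim, 31.8, 42.9 and 44.7 CPM in Model, and 36.7, 30.8 and 33.5 CPM in Model_Swim. Model mouse 1 was at the level of the highest Ctrl mouse, and the other Model mice were above. The increase in Model was 1.40-fold (log2 0.48, SE 0.15, edgeR adjusted p = 0.0296). This call was lost without Ctrl mouse 1 (edgeR adjusted p = 0.0819), Ctrl mouse 3 (0.0782), Model mouse 2 (0.0753) or Model mouse 3 (0.0664), with log2 fold changes from 0.40 to 0.47 in these fits. Between the swimming groups Bmp4 differed by 0.02 on the log2 scale (95% interval -0.30 to 0.35).

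Bmp2, a ligand produced by differentiated colon epithelium among other cells, was at 36.8, 27.6 and 35.1 CPM in Ctrl, 26.6, 29.4 and 21.7 CPM in Ctrl_Swim, 30.9, 62.0 and 24 CPM in Model, and 37.8, 37.1 and 31.4 CPM in Model_Swim. Model mouse 2 had the highest value of all and Model mouse 3 was lower than every Ctrl mouse, so that the Model group spanned all other groups but 1 Ctrl_Swim mouse. The log2 difference between Model and Ctrl was 0.23 (95% interval -0.39 to 0.85, edgeR adjusted p = 0.549). Without Model mouse 2 it was -0.25, and without Model mice 1 and 3, the mice with acinar RNA, it was 0.88 (edgeR adjusted p = 0.00510) with mouse 2 as the single Model mouse left. The Model_Swim mice were all above the Ctrl_Swim mice (log2 0.45, SE 0.28, edgeR adjusted p = 0.387), without passing the test.

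Bmp7, a ligand that forms dimers with BMP2 and BMP4, was at 10.8, 12 and 10.4 CPM in Ctrl, 10.2, 12.3 and 12.2 CPM in Ctrl_Swim, 29.1, 14.7 and 11.4 CPM in Model, and 17, 13.1 and 17 CPM in Model_Swim. Model mouse 1 stood apart, and Model mouse 3 lay within the Ctrl range. The log2 difference between Model and Ctrl was 0.73 (SE 0.28, edgeR adjusted p = 0.0648) and did not pass, with 0.25 without Model mouse 1, 0.99 without Model mouse 3 (edgeR adjusted p = 0.00957), and an adjusted p of 0.0319 in DESeq2. Model mouse 1 is also the mouse with 883 CPM of the Wnt-driven tumour list and the largest share of acinar RNA. Per 1000 CPM of that tumour list, Bmp7 ranged from 32.9 to 69.5 in Model and from 51.8 to 60.4 in Ctrl. The Model_Swim mice were all above the Ctrl_Swim mice, at a log2 difference of 0.43 (SE 0.28, edgeR adjusted p = 0.395). The tumour list stood at 368 to 385 CPM in Model_Swim and 186 to 226 CPM in Ctrl_Swim, and per 1000 CPM of it Bmp7 was lower in Model_Swim (34.0 to 46.1) than in Ctrl_Swim (50.4 to 65.5).

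Bmp5 is another ligand of the colon mesenchyme. Its levels were 31.7, 42.5 and 25.0 CPM in Ctrl, 34.3, 40.8 and 33.9 CPM in Ctrl_Swim, 26.6, 35.5 and 43.2 CPM in Model, and 36.4, 28.9 and 31.5 CPM in Model_Swim. All groups overlapped. The log2 difference between Model and Ctrl was 0.09 (95% interval -0.36 to 0.53, edgeR adjusted p = 0.767), an interval that does not exclude an increase of 1.44-fold.

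Tgfb1 was at 24, 19.2 and 23.4 CPM in Ctrl, 23.9, 26.2 and 30.9 CPM in Ctrl_Swim, 39.5, 49.2 and 38.9 CPM in Model, and 32.0, 33.8 and 35.9 CPM in Model_Swim. The 4 groups were stepped: all Model mice were above all Model_Swim mice, and those were above all untreated mice, with the Ctrl_Swim range reaching from within Ctrl to just below Model_Swim. Tgfb1 rose 1.92-fold in Model over Ctrl (log2 0.94, SE 0.13, edgeR adjusted p = 0.000768). This call by adjusted p was kept in all 22 alternative fits, but the fold in the main fit was below the study's cutoff of 2. Between the swimming groups the increase was 1.25-fold (log2 0.33, SE 0.12) and did not pass (edgeR adjusted p = 0.152).

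Inhba was the rarest member, with 14 to 19 counts in the untreated mice and 31 to 89 in the AOM/DSS mice. This made 1.05, 0.927 and 0.935 CPM in Ctrl, 0.986, 0.851 and 0.716 CPM in Ctrl_Swim, 4.77, 4.09 and 1.78 CPM in Model, and 2.31, 2.94 and 3.45 CPM in Model_Swim. Every AOM/DSS mouse was above every untreated mouse, and Model mouse 3 was the lowest of the AOM/DSS mice. The increases were 3.64-fold in Model over Ctrl (log2 1.86, SE 0.36, edgeR adjusted p = 0.00367) and 3.39-fold in Model_Swim over Ctrl_Swim (log2 1.76, SE 0.36, edgeR adjusted p = 0.0238). The first was kept in all 20 alternatives that tested the gene. The second was lost when any 1 Ctrl_Swim mouse, Model_Swim mouse 2 or Model_Swim mouse 3 was left out (edgeR adjusted p from 0.0639 to 0.0832, log2 1.61 to 1.87), and in limma on log2(FPKM + 1) without a filter (adjusted p = 0.0746).

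Id1 encodes an inhibitor of basic helix-loop-helix factors. Its levels were 118, 99.5 and 135 CPM in Ctrl, 95.3, 96.1 and 83.5 CPM in Ctrl_Swim, 149, 170.0 and 106 CPM in Model, and 141, 152 and 123 CPM in Model_Swim. The Ctrl_Swim mice were the lowest of all, below every Ctrl and every AOM/DSS mouse, while Model and Ctrl overlapped. Between Model and Ctrl the log2 difference was 0.27 (95% interval -0.086 to 0.63, edgeR adjusted p = 0.217). It passed the test without Model mouse 3 (0.45, edgeR adjusted p = 0.0202) and without Model mice 1 and 3 together (0.51, edgeR adjusted p = 0.0282). Between Model_Swim and Ctrl_Swim it was 0.60 (SE 0.16, edgeR adjusted p = 0.0611), just short of the threshold in edgeR and past it in DESeq2 (adjusted p = 0.00581), in edgeR on the groups compared (0.0123) and in edgeR without Model mouse 2 (0.0463) or Model mouse 3 (0.0136). In 17 of the 22 alternatives it stayed uncalled, with an adjusted p of up to 0.258 in edgeR with the replicate number as a block. Id1 was the member closest to the threshold in that comparison, where 2 of 9 members rose, and where 5.18% of all genes were called in either direction and 3.49% as higher. An unadjusted p under 0.05 was reached by 5 of 9 members and by 22.4% of all genes there.

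Counting both AOM/DSS comparisons, 4 of 9 members did not overlap between Model and Ctrl and 6 of 9 did not overlap between Model_Swim and Ctrl_Swim, all of them higher with AOM/DSS. Over all genes 44.2% and 32.4% did not overlap in either direction, so the first share is that of this background. Of the 15484 genes, 3255 and 2465 did not overlap and were higher with AOM/DSS.

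**Figure D2:**
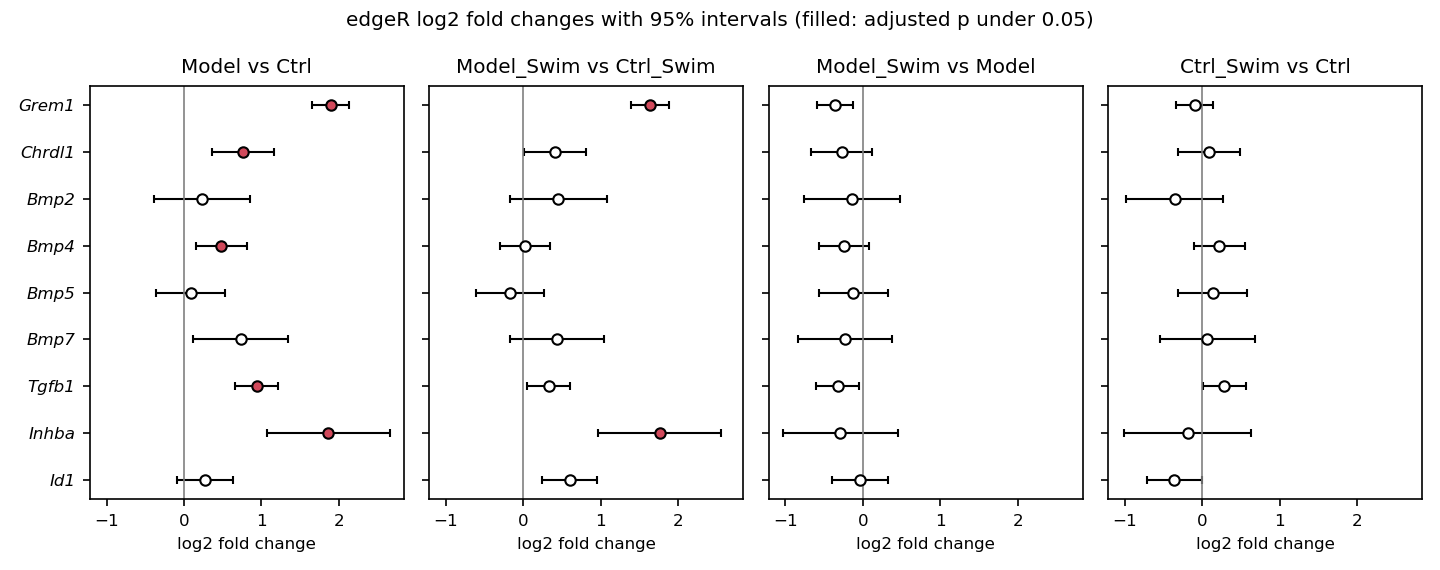
edgeR log2 fold changes (x axis) of the 9 genes in 4 comparisons, with 95% confidence intervals, filled where the adjusted p is under 0.05. Grem1 lies at 1.89 and 1.63 in the panels for AOM/DSS, and in the panels for swimming no point is filled.

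Swimming within AOM/DSS changed none of the 9 genes past the threshold. edgeR called 0 of 9 members and DESeq2 0 of 9, where edgeR called 0.0710% of all genes. That background rests on the Model mice, since edgeR called 882 genes without Model mouse 3 and 11 with all mice, and it still called 0 of 9 members then. Of the members, 2 of 9 had an unadjusted p under 0.05, where 13.6% of all genes did. All 9 log2 differences between Model_Swim and Model were below 0, from -0.36 for Grem1 to -0.03 for Id1, with a median of -0.24. The Model mice enter these differences and the Model vs Ctrl differences alike, so that the signs of the 2 comparisons are not independent.

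The members with an unadjusted p under 0.05 were Grem1 and Tgfb1, and these 2 were also the members without overlap (16.9% of all genes had none). Grem1 was 0.780-fold the Model level in Model_Swim, with group means of 71.1 against 91.1 CPM (log2 -0.36, 95% interval -0.59 to -0.13, edgeR adjusted p = 0.216). Tgfb1 was 0.798-fold the Model level, with 33.9 against 42.5 CPM (log2 -0.33, 95% interval -0.60 to -0.054, edgeR adjusted p = 0.295). Over the alternatives the adjusted p ranged from 0.0795 to 0.438 for Grem1 and from 0.101 to 0.537 for Tgfb1. The intervals of the other 7 members included 0. For Inhba the interval of -1.03 to 0.45 leaves room for a fall by more than 2-fold.

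Swimming without AOM/DSS likewise passed the test for 0 of 9 members in edgeR and 0 of 9 in DESeq2, where edgeR called 0.969% of all genes. Tgfb1 was the member with an unadjusted p under 0.05 (17.6% of all genes), and was higher in Ctrl_Swim at 27.0 against 22.2 CPM (log2 0.28, SE 0.13, edgeR adjusted p = 0.272), with overlapping groups. Id1 was the member whose groups did not overlap (27.4% of all genes), and was lower in Ctrl_Swim at 91.6 against 117 CPM (log2 -0.36, SE 0.16, edgeR adjusted p = 0.285). The interval of Id1, from -0.72 to 0.0012, included 0, as did the intervals of the other 7 members. The log2 differences of these 7 ranged from -0.35 for Bmp2 to 0.22 for Bmp4.

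The swimming difference of Tgfb1 thus pointed up without AOM/DSS and down with it. The difference between both effects, tested as an interaction, was -0.61 on the log2 scale (SE 0.18, 95% interval -0.999 to -0.22, edgeR adjusted p = 0.135). It did not pass in edgeR, passed in DESeq2 (adjusted p = 0.0441) and passed in edgeR without Model mice 1 and 3 (adjusted p = 0.0421), and ranged up to 0.436 over the other alternatives. It was the member with an unadjusted p under 0.05 for the interaction, where edgeR called 0 of 9 members and 0 of 15484 genes, DESeq2 called 1 member and 777 genes, and 19% of all genes had an unadjusted p under 0.05 in edgeR. The 12 leukocyte markers had a median interaction of -1.19, and 6 of them had an unadjusted p under 0.05, with 0 called. Their part in the value of Tgfb1 was not tested. For Bmp4 the interaction was -0.46 (95% interval -0.92 to 0.00014, edgeR adjusted p = 0.262), and for the other 7 members the interval also included 0.

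Set against the ligands, Grem1 changed places with the sum of Bmp2, Bmp4, Bmp5 and Bmp7. Adding the FPKM of Bmp2, Bmp4, Bmp5 and Bmp7 gives a summed ligand level of 31.5 ± 2.73 in Ctrl, 35.4 ± 4.92 in Ctrl_Swim, 43.4 ± 6.92 in Model and 37.7 ± 2.83 in Model_Swim (SD, n = 3). The ratio of Grem1 to this sum was 0.413, 0.407 and 0.421 in Ctrl, 0.352, 0.374 and 0.398 in Ctrl_Swim, 1.41, 1.05 and 1.2 in Model, and 0.868, 1.29 and 1.08 in Model_Swim. In the untreated mice the antagonist was below the summed ligands in all 6, and in 5 of the 6 AOM/DSS mice it was above, with Model_Swim mouse 1 as the exception. The ratio was 2.96-fold higher in Model than in Ctrl and 2.89-fold higher in Model_Swim than in Ctrl_Swim, without overlap in either. In Ctrl_Swim it was 0.906-fold that of Ctrl, also without overlap, and Model_Swim and Model overlapped. Other BMP ligands are left out of this sum, among them Bmp3, Bmp6 and Bmp8a, with means of 7.53, 3.41 and 2.14 FPKM over all mice. In Model mouse 2, Grem1 was at 53.8 FPKM against a sum of 51.2 FPKM, and in Model_Swim mouse 3 at 39.9 against 36.8 FPKM. Margins of this size are below the mean of Bmp3 alone, so the order holds only for Bmp2, Bmp4, Bmp5 and Bmp7. Whether Grem1 is above a wider sum was not tested. The ratio was chosen with the values in view and is given without a test. These are transcript levels and not amounts of protein.

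**Figure D3:**
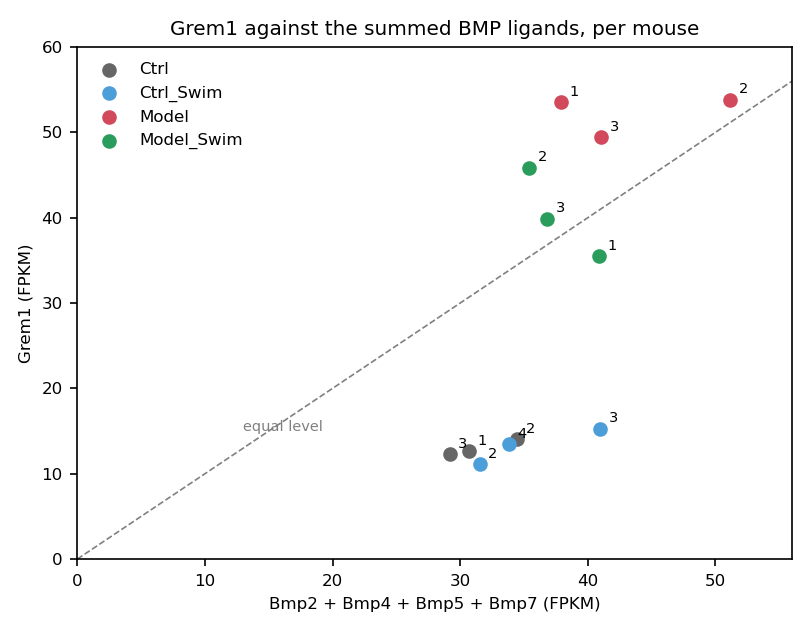
Grem1 (y axis, FPKM) against the sum of Bmp2, Bmp4, Bmp5 and Bmp7 (x axis, FPKM) in each of the 12 mice, numbered by replicate, with a dashed line where both are equal. The untreated mice lie below the line, and all AOM/DSS mice but Model_Swim mouse 1 lie above it.

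Markers of other cells moved with the same groups. The 8 fibroblast markers summed to 1414 to 1561 CPM in Ctrl, 1301 to 1554 in Ctrl_Swim, 2453 to 2772 in Model and 1899 to 2513 in Model_Swim, and 8 of 8 rose in Model over Ctrl and 4 of 8 in Model_Swim over Ctrl_Swim. None of the markers was at 0 in any mouse. Per 1000 CPM of that list, Grem1 was at 15.5 to 18.5 in Ctrl, 15.5 to 16.9 in Ctrl_Swim, 33.9 to 35.5 in Model and 27.8 to 35.9 in Model_Swim. Grem1 thus remained higher in all AOM/DSS mice after division by the fibroblast sum, while Model_Swim and Model then overlapped. Of the 8 smooth muscle markers 0 changed in edgeR (0 had an unadjusted p under 0.05), and per 1000 CPM of that list Grem1 was at 2.90 to 3.29 in Ctrl and 10.2 to 15.3 in Model.

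The 7 markers of subepithelial telocytes, stromal cells beside the crypts that are known to secrete BMPs and Wnts, summed to 163 to 189 CPM in Ctrl, 169 to 217 in Ctrl_Swim, 230 to 255 in Model and 220 to 229 in Model_Swim, with 2 of 7 higher in Model than in Ctrl and 0 of 7 called between the swimming groups. Their part in the increase of Bmp4 was not tested.

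The other antagonist is set on the same scale here. Chrdl1 per 1000 CPM of the fibroblast list was at 9.76 to 10.3 in Ctrl and 8.18 to 12 in Model, so the Model range enclosed the Ctrl range. Inhba per 1000 CPM of the list was at 0.649 to 0.672 in Ctrl, 0.513 to 0.758 in Ctrl_Swim, 0.725 to 1.72 in Model and 1.22 to 1.37 in Model_Swim. All AOM/DSS mice were above Ctrl, but Model mouse 3 was below Ctrl_Swim mouse 2.

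The 12 leukocyte markers summed to 274 to 284 CPM in Ctrl, 267 to 427 in Ctrl_Swim, 689 to 699 in Model and 505 to 700 in Model_Swim, and 12 of 12 rose in Model over Ctrl, with 5 of 12 in Model_Swim over Ctrl_Swim and none at 0 in any mouse. Tgfb1, which leukocytes express strongly, was at 70.0 to 87.8 per 1000 CPM of the leukocyte list in Ctrl and at 55.6 to 71.4 in Model. On this scale the higher Tgfb1 of Model was no longer seen, and Model_Swim (51.3 to 64.3) was below Ctrl_Swim (72.4 to 89.7) without overlap. For Id1, the endothelium list, a cell type rich in Id1, gave 375 to 516 per 1000 CPM in Ctrl, 207 to 315 in Ctrl_Swim, 312 to 513 in Model and 367 to 481 in Model_Swim, with Model mouse 3 below the highest Ctrl_Swim mouse. The endothelium sum itself was 250 to 265 CPM in Ctrl and 302 to 404 CPM in Ctrl_Swim. Per 1000 CPM of the colon epithelium list, Id1 was at 3.43 to 4.31 in Ctrl, 3.08 to 3.69 in Ctrl_Swim, 3.76 to 10.0056 in Model and 4.86 to 6.02 in Model_Swim, so that Ctrl_Swim and Ctrl overlapped there. These divisions were chosen with the values in view and were not tested, and the lists share no gene with the 9 members.

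**Figure D4:**
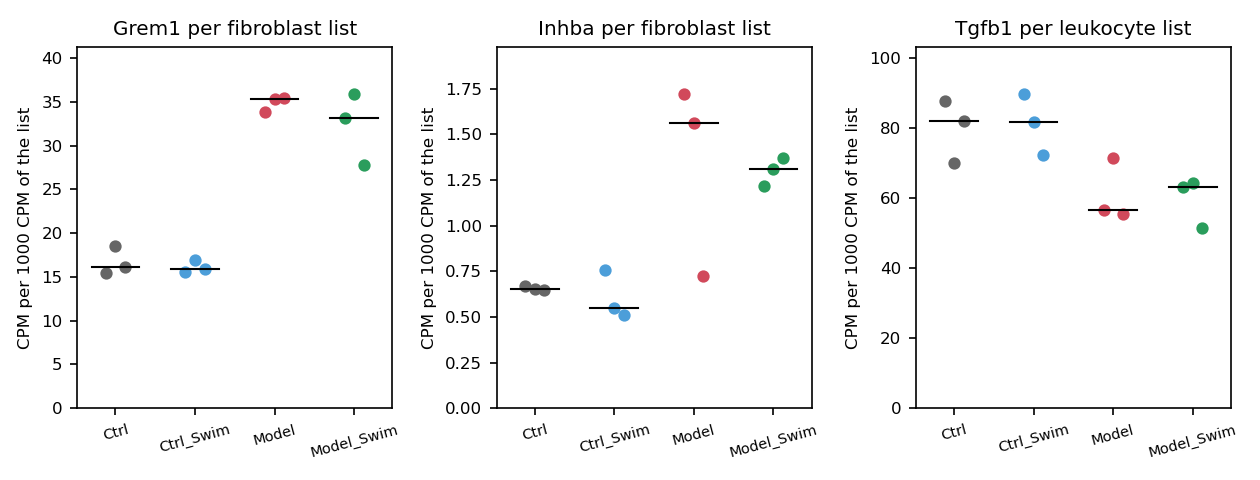
Grem1, Inhba and Tgfb1 as CPM per 1000 CPM of a marker list (y axes from 0) in the 4 groups, with 1 point per mouse and a line at the group median. Grem1 and Inhba per fibroblast list are higher in all AOM/DSS mice than in Ctrl, whereas Tgfb1 per leukocyte list is at 55.6 to 71.4 in Model and 70.0 to 87.8 in Ctrl.

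Of the 106 other pathway genes tested, 47 rose and 3 fell in Model against Ctrl, with a median log2 fold change of 0.39. With the fold cutoff, 16 passed. Ltbp2 stands on a pair of lists and is counted once in these totals. The 3 that fell are named below, outside the rule for naming, because they are so few. These lists were written with earlier results of the data known, and their share is to be read against the background of 32.7%.

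Among 18 other ligands, 9 rose and 1 fell (Lefty1, a Nodal inhibitor, log2 -0.68, edgeR adjusted p = 0.0355), with a median of 1.06. The lowest adjusted p belonged to Inhbb, the subunit of activin B, at 7.78 against 1.35 CPM (log2 2.52, SE 0.32, edgeR adjusted p = 0.000605). Gdf10, also called BMP3B, rose by 1.03, Bmp8b by 2.05 and Tgfb3, a further TGF-beta ligand, by 0.64 on the log2 scale. Bmp3 was the most abundant of these ligands per length and overlapped between groups (log2 -0.50, edgeR adjusted p = 0.303). Gdf10 was also higher in Ctrl_Swim than in Ctrl, at 10.2, 11.2 and 10.8 against 6.46, 5.67 and 7.15 CPM (log2 0.74, SE 0.15, edgeR adjusted p = 0.0528). Its interaction was -1.17 (SE 0.22, edgeR adjusted p = 0.0957), without passing.

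Among 17 receptors and co-receptors, 6 rose and 0 fell, all by less than 2-fold. Over all genes 32.7% were called in either direction and 16.5% as higher, and the share called in either direction is near the first of these. Tgfbr2, the type II TGF-beta receptor, rose by 0.49 on the log2 scale (SE 0.06, edgeR adjusted p = 0.00061), Eng, an endothelial co-receptor, by 0.55, Bmpr2, the type II BMP receptor, by 0.35 and Acvr2b, a type II activin receptor, by 0.54. The type I BMP receptor Bmpr1a was at -0.13 (SE 0.07, edgeR adjusted p = 0.150) and Acvr1b, a type I activin receptor, at -0.06 (SE 0.08, edgeR adjusted p = 0.629).

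Among 32 other antagonists and extracellular regulators, 18 rose and 0 fell, with a median of 0.59. The lowest adjusted p were those of Ltbp3, which holds latent TGF-beta (log2 0.90, SE 0.09), and Bmp1, a protease that cleaves chordin and procollagens (log2 0.88, SE 0.09), both with an edgeR adjusted p of 0.000316. Itgav, an integrin subunit that helps to release active TGF-beta, rose by 0.84 and Fbn1, the microfibril protein that latent TGF-beta complexes attach to, by 0.82. The most abundant genes of the list per length, Ltbp4, Thbs1 and Fstl1, rose by 0.39, 0.67 and 0.72. Some other antagonists, named after their values were seen, did not move together: Nog was at -0.16 (edgeR adjusted p = 0.748) and Chrd at 0.38 (0.218), whereas Fst, the activin inhibitor follistatin, rose by 0.92 (0.0158) and Chrdl2 by 2.47 (0.000737).

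Among 19 SMADs and intracellular regulators, 4 rose and 2 fell, with a median of 0.02. This share is near the 32.7% of all genes called in either direction. The 2 that fell were Zfyve9 (log2 -0.43, edgeR adjusted p = 0.0361), which brings SMADs to the receptor, and Ppm1a (log2 -0.22, edgeR adjusted p = 0.0470), a SMAD phosphatase. Those with the lowest adjusted p were Smurf1, a ubiquitin ligase for SMADs (log2 0.47, SE 0.09, edgeR adjusted p = 0.00367), Skil, a SMAD corepressor that TGF-beta itself induces (0.80, SE 0.16, edgeR adjusted p = 0.00407), Smad3 (0.38) and Smad5 (0.27). Ski, Smad4 and Smad1, the most abundant of the list per length, were at 0.11, -0.03 and 0.02 and did not pass.

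Among 21 known target genes, 11 rose and 0 fell. Col1a2 and Col1a1, the chains of type I collagen, rose by 0.86 and 1.12 on the log2 scale (edgeR adjusted p = 0.000981 and 0.00152) and are also on the fibroblast list. Atoh8, a BMP target, rose by 0.82 (SE 0.13, edgeR adjusted p = 0.0018) and Tgfbi, an extracellular TGF-beta target, by 0.51. The relatives of Id1, chosen after their values were seen, were at 0.46 for Id2 (edgeR adjusted p = 0.0103), 0.24 for Id3 (0.0929) and 0.14 for Id4 (0.527). Acta2, Cdkn1a and Postn, the most abundant targets per length, were at -0.04, -0.28 and 0.16 and did not pass.

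Swimming within AOM/DSS passed the test for 0 of these 106 genes in edgeR, with a median log2 difference of -0.04. An unadjusted p under 0.05 was reached by 11 of them, where 13.6% of all genes did. Without Model mouse 3, 4 of them were called, as were 882 of the 15681 genes tested in that fit. Without AOM/DSS, swimming passed the test for 0 of 106 in edgeR, and DESeq2 called 1 of them and 658 of all genes. An unadjusted p under 0.05 in edgeR was reached by 12 of the 106, where 17.6% of all genes did. Between Model_Swim and Ctrl_Swim 22 of 106 rose and 0 fell, with a median of 0.25. Over all genes 3.49% were called as higher there and 5.18% in either direction. The number of pathway genes called depended on single mice. It was 10, 7 and 5 without Model_Swim mouse 1, 2 or 3, 10, 8 and 10 without Ctrl_Swim mouse 2, 3 or 4, 14 without Ctrl mouse 1, and up to 30 without Model mouse 3. Of the genes named above, Inhbb, Bmp8b, Tgfbr2, Ltbp3, Bmp1, Itgav, Fbn1, Thbs1, Fstl1, Chrdl2, Skil, Smad3, Col1a1, Col1a2 and Atoh8 were called in both AOM/DSS comparisons. Between the swimming groups Fbn1 was at log2 0.94 (SE 0.10, edgeR adjusted p = 0.00277) and Inhbb at 1.22 (SE 0.30, edgeR adjusted p = 0.0433).

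**Figure D5:**
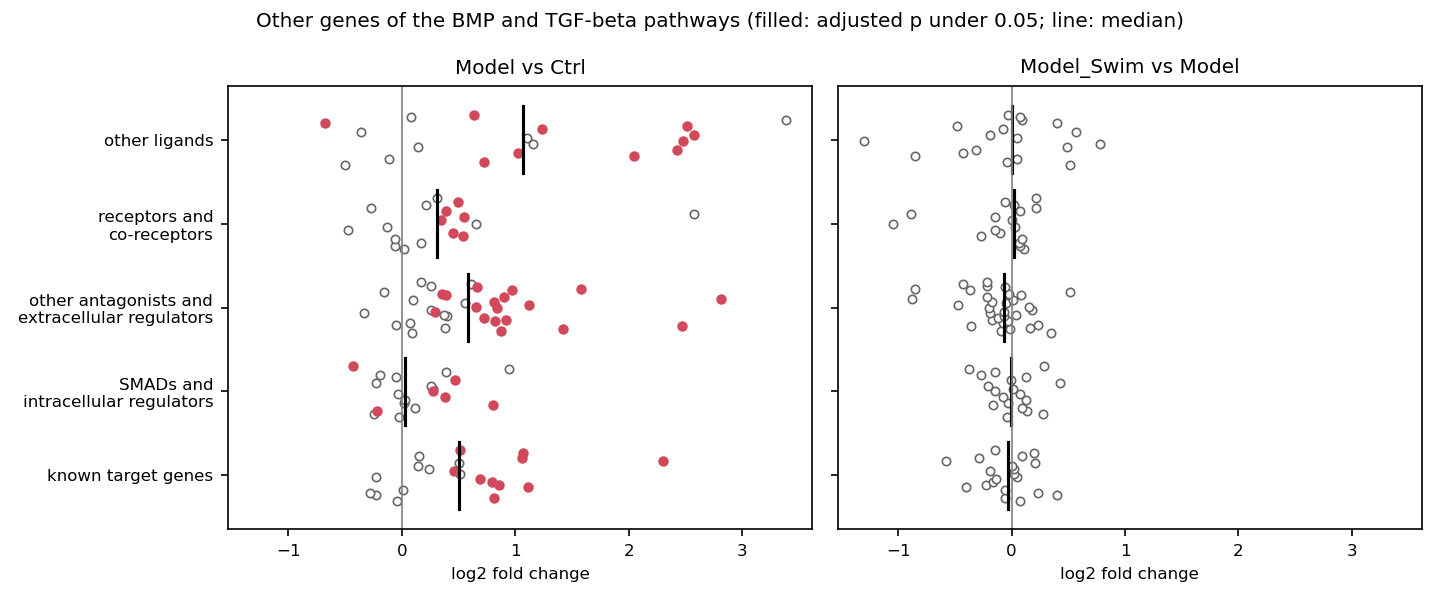
edgeR log2 fold changes (x axis) of 106 pathway genes other than the 9 members, by role (y axis), for Model vs Ctrl and Model_Swim vs Model. Each point is a gene, filled where the adjusted p is under 0.05, and the line is the median of the list, which is 1.06 for other ligands and 0.02 for SMADs in the first panel and near 0 for all lists in the second.

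Genes whose levels followed those of a member most closely over the 12 mice were found by Pearson's r of log2 CPM among 11773 genes. The values are given as a description, since the highest of many r were picked, and the groups themselves separate the mice for the members that AOM/DSS raised. For Grem1 these were Col4a2 (r = 0.987), a basement membrane collagen, Dab2 (0.981) and Ms4a6d (0.980), and after subtraction of group means r was 0.679, 0.547 and 0.423. Tgfb1 was closest to Irf5 (0.978), a transcription factor of myeloid cells, Msn (0.971) and Ppp1r18 (0.968), and with group means removed r was 0.913, 0.786 and 0.801. Inhba followed Adamts2 (0.986), the procollagen protease, Vill (0.983) and Grn (0.979). Chrdl1 followed Tbc1d2b (0.945), Ptpn1 (0.935) and Afap1 (0.934).

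Among the ligands, the closest gene kept its r when group means were removed. Bmp7 was closest to Vangl2 (r = 0.978, and 0.980 after group means), a planar polarity gene, Ccdc3 (0.949) and Tead2 (0.945). Model mouse 1, with its high Bmp7, is 1 of the 12 points. Bmp4 was closest to Acvrl1 (0.941, and 0.968 after group means), a type I receptor for BMP9 and BMP10 in endothelium, Rsbn1l (0.926) and Atf7 (0.921). Bmp5 was closest to Aspn (0.928, and 0.966 after group means), a matrix proteoglycan, Prkg1 (0.889) and Gjc1 (0.887). Bmp2 was closest to Dnajb2 (0.916, and 0.906 after group means), Pbxip1 (0.896) and Kank1 (0.895), and Id1 to Cyp2d10 (0.969), Cyp2d9 (0.959) and Hist1h1c (0.952). Cyp2d10 and Cyp2d9 are close paralogs, whose reads the counting could have split between them.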

How the data were processed

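RNA of colorectal tissue was sequenced in 12 mice, 3 in each of 4 groups, which were taken from the titles in the labels. After trimming (Trimmomatic) and alignment to the mouse genome (HISAT2, build GRCm38.p6), the authors deposited raw counts per gene from HTSeq-count, without normalization. They also deposited FPKM values from Cufflinks, scaled for gene length and library size. Tool versions were not given in the sources used here. The labels and the paper name different RNA extraction kits. Nothing says that mice of a group came from separate cages or litters, so p-values measure the spread between these mice. No libraries of a group agreed within sampling noise (chi-square per degree of freedom 7.69 to 119).

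The 9 members and all lists were chosen with earlier results of these data known, and the members were named by the request. Of each pathway list, up to 4 genes with the lowest adjusted p among those called in Model vs Ctrl or Model_Swim vs Model, and up to 3 with the highest mean FPKM, are named. Each member also has 3 genes of the highest Pearson's r (mean of at least 5 CPM).

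The counts went into edgeR 4.0.16 under R 4.3.3 (TMM, filterByExpr with a minimum count of 10, quasi-likelihood fit of the 4 groups), with 5 comparisons and Benjamini-Hochberg adjustment over 15484 genes in each. Log2 CPM use a prior count of 2. The SE is the log2 fold change divided by the square root of F. Alternatives were DESeq2 1.42.0 (the study's tool), its size factors in edgeR, no filter, fits of the compared groups, the replicate number as a block, acinar genes removed, limma 3.58.1 on log2(FPKM + 1) and log2(FPKM + 0.1) for a mean FPKM of at least 0.5 and on log2(FPKM + 1) without a filter, each mouse left out, Model mice 1 and 3 left out, and the study's fold cutoffs (over 2 or under 0.5). Promoters and gene locations are from RefSeq, strands of the genes and overlaps from GENCODE M21. The code was tested on simulated counts.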

Additional observations from a re-analysis of the deposited data

How the results depend on the processing

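Of 45 member values (9 genes in 5 comparisons), 7 were called. Over 150 alternatives of these 7, none changed direction and 12 lost the call, all of Bmp4 in Model vs Ctrl or Inhba in Model_Swim vs Ctrl_Swim. The study's fold cutoffs are not among these 150, since they were applied only to the numbers of genes called. Members called in Model vs Ctrl numbered 2 by the study's cutoffs, 4 to 6 when 1 mouse was left out and 7 without Model mice 1 and 3 together. In Model_Swim vs Model they numbered 0 when any 1 mouse was left out and 1 without Model mice 1 and 3 together, when Bmp2 passed (log2 -0.79, edgeR adjusted p = 0.0379) and a single Model mouse with high Bmp2 was left, assumed to vary like the other groups. In Model_Swim vs Ctrl_Swim they numbered 1 in each of the 3 limma fits and 1 to 3 when 1 mouse was left out (1 without any single Ctrl_Swim mouse or Model_Swim mouse 2 or 3). The limma fits with a filter tested 8 members and left out Inhba, so only the limma fit without a filter could keep or lose its call. For the interaction they numbered 1 in DESeq2 and 1 without Model mice 1 and 3 together. Pathway genes called numbered 16 by the study's cutoffs and 37 to 51 with 1 mouse left out in Model vs Ctrl, and 1 without Model mice 1 and 3 and 0 to 4 with 1 mouse left out (4 without Model mouse 3) in Model_Swim vs Model. In Ctrl_Swim vs Ctrl they numbered 1 in DESeq2, 2 in the fit of the groups compared, 1 in each limma fit with a filter, 3 without Model mice 1 and 3, and 0 to 2 with 1 mouse left out (2 without Model mouse 1 or Model mouse 3, 1 without Ctrl_Swim mouse 2). In Model_Swim vs Ctrl_Swim they numbered 6 by the study's cutoffs and 5 to 30 with 1 mouse left out. For the interaction they numbered 4 in DESeq2, 4 without Model mice 1 and 3, and 0 to 4 with 1 mouse left out (4 without Ctrl_Swim mouse 2, 1 without Model mouse 1 or Model mouse 3). The causes were not tested.

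Replicate numbers do not pair the mice by their data: of 15 same-number pairs of libraries, 4 correlated above 0.1 after group means. With the replicate block, Bmp4 in Model vs Ctrl (edgeR adjusted p = 0.0515) and Inhba in Model_Swim vs Ctrl_Swim (edgeR adjusted p = 0.150) lost the call, which left 1 member and 2 pathway genes called in Model_Swim vs Ctrl_Swim under the block. Over all genes the block gave 4322 calls in Model vs Ctrl, 26 in Model_Swim vs Model, 1 in Ctrl_Swim vs Ctrl, 40 in Model_Swim vs Ctrl_Swim and 0 for the interaction.

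Direction changed in 13 values, none of them called. With 1 mouse left out, the log2 difference in Model vs Ctrl ranged from -0.25 to 0.49 for Bmp2 and from -0.081 to 0.32 for Bmp5. In Model_Swim vs Model it ranged from -0.38 to 0.35 for Bmp2, -0.29 to 0.065 for Bmp5, -0.48 to 0.26 for Bmp7 and -0.20 to 0.10 for Id1. In Ctrl_Swim vs Ctrl it ranged from -0.014 to 0.37 for Bmp5, -0.19 to 0.0048 for Grem1 and -0.10 to 0.22 for Chrdl1, and in Model_Swim vs Ctrl_Swim from -0.061 to 0.16 for Bmp4. The interaction ranged from -0.043 to 0.69 for Bmp2, -0.56 to 0.18 for Bmp7 and -0.43 to 0.15 for Inhba. Without Model mice 1 and 3 together, Bmp7 was at 0.11 in Model_Swim vs Model and 0.0396 in the interaction, and Bmp2 at -0.44 in the interaction. In the limma fits Grem1 was at 0.0214 in Ctrl_Swim vs Ctrl (0.0223 with a pseudocount of 0.1), where the median of all genes also moved, to 0.092 and 0.11 in those with a filter from 0.000435, so that Grem1 stayed below that median. With limma on log2(FPKM + 1), 3003 genes rose and 1516 fell in Model vs Ctrl, against 2562 and 2504 in edgeR. In Ctrl_Swim vs Ctrl the limma split was 30 and 21 against 26 and 124, and in Model_Swim vs Ctrl_Swim 477 and 590 against 540 and 262. DESeq2 called 361 genes in Model_Swim vs Model (213 higher and 148 lower, against 10 and 1 in edgeR), 658 in Ctrl_Swim vs Ctrl and 1562 in Model_Swim vs Ctrl_Swim. At this depth, Inhba with 14 to 19 counts in untreated mice is the member with the largest counting error.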
